A study of Mus musculus with 8 samples.

Results

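The testis transcripts described here are loci that an assembler placed in the expression table under its own numbers (MSTRG), with no gene symbol and no annotated gene identifier. A locus was included when its mean over all 8 libraries was at least 1 TPM (an abundance scaled to transcript length and to the library total). This gave 1886 of the 2154 assembled loci, in a table of 57690 rows. Of the 268 loci below the threshold, 20 had a mean of 0 and 248 a mean above 0. The mean TPM over all libraries therefore chose the members, and their abundance is given as a description. The threshold fell between MSTRG.3008 (mean 1.01 TPM, 3702 bases) and MSTRG.25305 (1.01 TPM, 692 bases), which were just inside, and MSTRG.8490 (0.999 TPM, 2842 bases) and MSTRG.21338 (0.999 TPM, 267 bases), which were just outside.

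The libraries were made from testes of C57BL/6 male mice aged 8 weeks. The mice had received 2 intraperitoneal injections of 200 µg of anti-PD-L1 or of an IgG2b isotype control, and tissue was taken 7 days after treatment. PD-L1 is the ligand of PD-1, an inhibitory receptor of T cells. Each group held 4 libraries, numbered 1 to 4 in their titles. Whether the libraries of a group are separate animals is not stated in the labels, so the p-values reflect spread between libraries that may be technical in part or whole. TPM keeps no record of read depth, so the depth behind each value is unknown.

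Transcript assemblers join aligned reads into exons and loci, and a locus that meets no annotated gene receives a running number. Such loci can be long noncoding RNAs, unannotated parts of known genes, pseudogenes, ribosomal RNA fragments or copies of transposable elements. Among the last are LINE-1 elements, which encode the RNA-binding protein ORF1 and the endonuclease and reverse transcriptase ORF2, and intracisternal A-particles (IAP), mouse endogenous retroviruses with gag and pol genes. In male germ cells both are silenced by DNA methylation and by PIWI-interacting RNAs, and the testis is also known for transcription of many regions that other tissues leave silent. The table gives neither positions nor sequences of the assembled loci, so where they lie in the genome, and whether they overlap a gene, was not analysed here.

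The tissue label was checked against markers of testis cells. All markers of Sertoli cells, Leydig cells, germ cells, peritubular myoid cells, endothelium and macrophages had a mean of at least 1 TPM, while 0 of 5 T cell, 0 of 3 B cell and 0 of 5 epididymis markers did. The 8 adipocyte markers, of which 6 reached 1 TPM and Cidec and Lep did not, summed to 12.8 to 99.8 TPM in IgG and to 9.12 to 14.2 TPM in anti-PD-L1 libraries. The 6 Leydig cell markers summed to 1149.8 to 1493 TPM in IgG and to 2068 to 3377 TPM in anti-PD-L1 libraries, without overlap. The gap lay in Insl3, a Leydig cell hormone, since the other 5 summed to 398 to 498 TPM and to 349 to 572 TPM. In bulk tissue, a change in the number of cells of a type and a change in RNA per cell cannot be told apart. Another pair of libraries stood apart from the rest across groups: IgG replicate 4 and anti-PD-L1 replicate 1 deviated from their group means in the same direction (r = 0.36 across 20343 rows, which share these libraries), against −0.20 to 0.13 for the other pairs of an IgG and an anti-PD-L1 library.

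Most of the assembled loci were rare and short. Their median mean abundance was 2.59 TPM (quartiles 1.74 and 4.64), against 5.50 TPM for 2755 annotated long noncoding genes and 14.0 TPM for 14155 protein-coding genes chosen by the same threshold. Only 167 loci (8.85%) reached 10 TPM, against 32.2% of long noncoding and 58.3% of protein-coding genes, and 10 loci reached 100 TPM. The median of the length column was 805.5 bases (quartiles 477.5 and 1551, range 202 to 27811), against 953 bases for long noncoding and 2648 bases for protein-coding genes. The labels do not define the length column, which was read as a transcript or merged exon length. The curves of abundance and length show both shifts, and in the right-hand panel the assembled loci also have a long upper tail that crosses the long noncoding curve.

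**Figure D1:**
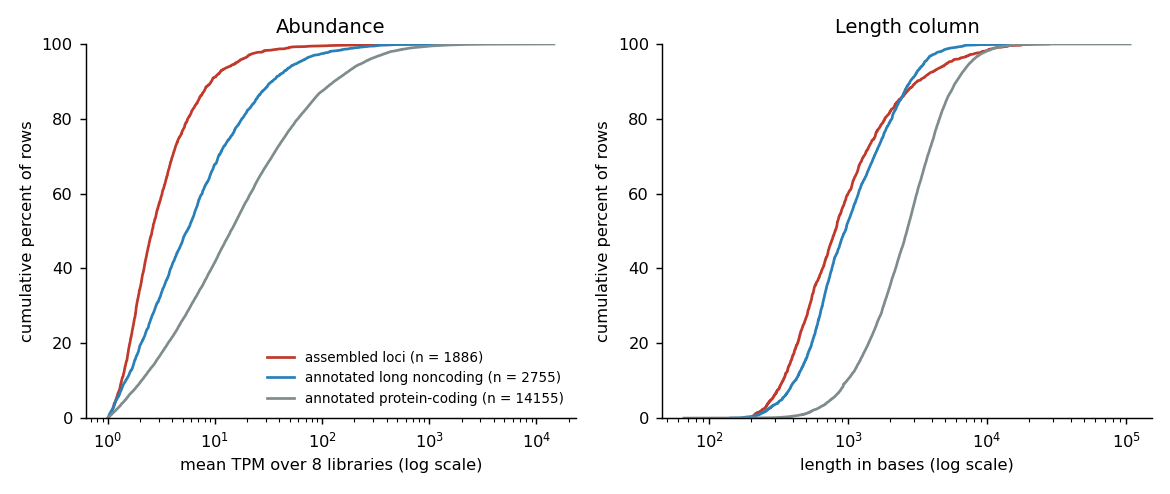
Cumulative percent of rows by mean TPM over 8 libraries (left, log scale) and by the length column in bases (right, log scale), for 1886 assembled loci, 2755 annotated long noncoding genes and 14155 protein-coding genes at or above the threshold. The assembled loci lie to the left of both annotated classes in abundance, with a median of 2.59 TPM.

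A few loci carried much of the signal. All 1886 together summed to 13587, 10988, 11881 and 13699 TPM in IgG replicates 1 to 4 and to 17773, 12430, 12758 and 11809 TPM in anti-PD-L1 replicates 1 to 4, which is 1.10% to 1.78% of each library. The groups overlapped, and anti-PD-L1 replicate 1 was the highest. The log2 ratio of the group means was 0.13, and it was −0.02 without anti-PD-L1 replicate 1. The 8 most abundant loci held 23.0% to 40.6% of these sums. The other 1878 loci summed to 8182 to 8473 TPM in 6 libraries and to 10289 and 10565 TPM in IgG replicate 4 and anti-PD-L1 replicate 1.

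The most abundant was MSTRG.17331 (483 bases), at 1951, 855, 1235 and 1238 TPM in IgG replicates 1 to 4 and 2713, 1714, 1704 and 1312 TPM in anti-PD-L1 replicates 1 to 4. The groups overlapped. Next came MSTRG.10588 (555 bases), at 863, 467, 601 and 579 TPM in IgG and 1394, 673, 847 and 738 TPM in anti-PD-L1 libraries, again with overlap. MSTRG.27062 (352 bases), MSTRG.23022 (1076 bases) and MSTRG.15308 (267 bases) had means of 447 to 476 TPM, and MSTRG.5312 (1246 bases), MSTRG.13911 (459 bases) and MSTRG.13746 (513 bases) had means of 141 to 207 TPM. IgG replicate 2 was the lowest library for all 8, and anti-PD-L1 replicate 1 was the highest for 7 of them, the exception being MSTRG.23022 with IgG replicate 1.

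The deposited protein matches of these 8 loci name few known proteins. MSTRG.17331 and MSTRG.10588 match hypothetical proteins of the roundworm Trichinella pseudospiralis, MSTRG.27062 and MSTRG.23022 match hypothetical proteins of the tapeworm Echinococcus granulosus, and MSTRG.5312 and MSTRG.13911 match unnamed mouse predictions. In Swiss-Prot, MSTRG.23022 matches NLRC3, a regulator of innate immune signalling, and MSTRG.15308 matches TAR1, a yeast protein encoded antisense to large ribosomal RNA. MSTRG.15308 was the only one of the 20343 rows tested with a TAR1 match. A match names a similar protein sequence and does not show that the locus makes that protein.

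An annotated ribosomal RNA row, CT010467.1 (ENSMUSG00000106106, chr17:39846353-39848827 in mm10, from the GENCODE annotation), was set beside them because of the TAR1 match, chosen after the values had been seen. It stood at 5372, 2336, 3915 and 3241 TPM in IgG and 5726, 3505, 4278 and 4138 TPM in anti-PD-L1 libraries, and like the 8 loci it was lowest in IgG replicate 2. Across libraries the TPM of the 8 loci spanned 2.33-fold to 3.17-fold from lowest to highest, whereas the ratio of each locus to CT010467.1 spanned 1.21-fold to 1.66-fold. For MSTRG.23022 the ratio lay between 0.102 and 0.124 in all 8 libraries. Other annotated rows were looked at in the same way. Lars2, the mitochondrial leucyl-tRNA synthetase, was also lowest in IgG replicate 2 and highest in anti-PD-L1 replicate 1. The ratios to it spanned 1.16-fold to 1.53-fold, a range about as narrow as for the ribosomal RNA row. The mitochondrial ribosomal RNAs mt-Rnr1 and mt-Rnr2 were lowest in IgG replicate 2 as well, with ratios that spanned 1.33-fold to 1.82-fold and 1.59-fold to 2.17-fold. Gm42418, a long noncoding gene inside the interval of CT010467.1, and its neighbour Gm26917 were not lowest in that library, and the ratios to them spanned 2.16-fold to 2.99-fold and 1.96-fold to 2.75-fold. Whether these loci are ribosomal RNA, and whether reads of ribosomal RNA were counted at the annotated rows set beside them, was not tested.

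**Figure D2:**
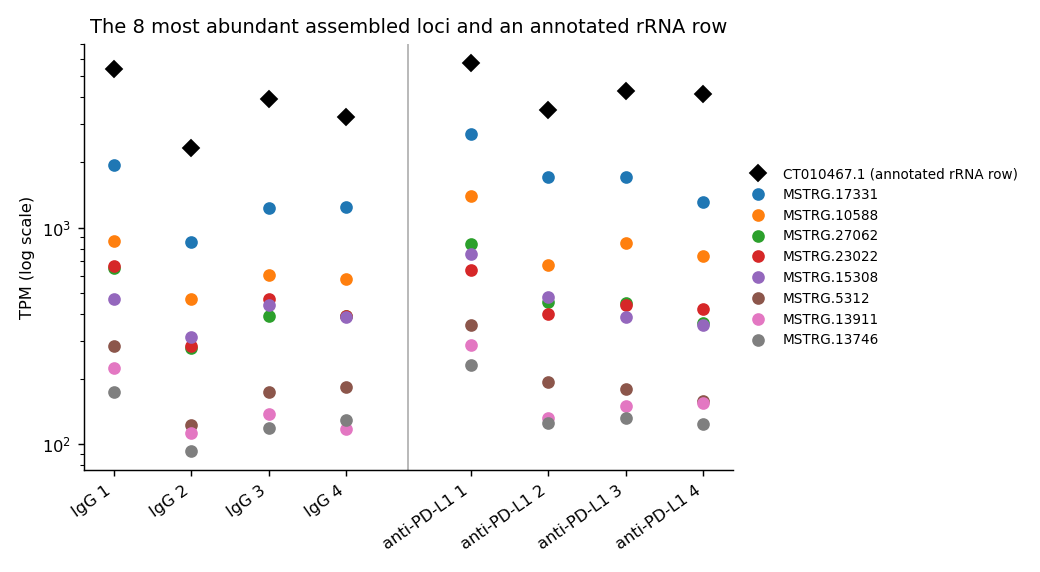
TPM (log scale) of the 8 most abundant assembled loci (circles) and of the annotated rRNA row CT010467.1 (diamonds) in each of the 4 IgG and 4 anti-PD-L1 libraries. All 9 rows are lowest in IgG replicate 2, and the groups overlap.

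After anti-PD-L1 all 8 had higher mean log2(TPM + 1), by 0.11 to 0.51, where 58.3% of all rows were higher. The 8 loci shared their lowest library, IgG replicate 2, and are not independent. Of the 8, 0 passed the test (adjusted p of 0.98 or above, limma with Benjamini-Hochberg adjustment over all 20343 rows). For MSTRG.17331 the means were 1319.8 ± 457 TPM for IgG and 1861 ± 598 TPM for anti-PD-L1 (SD, n = 4 each), a log2 difference of 0.51 (SE 0.27). With both libraries that stand apart left out, 5 of the 8 were higher and 3 lower, with a median log2 difference of 0.01 in place of 0.26. MSTRG.23022, MSTRG.5312 and MSTRG.13911 were those that turned.

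Shorter loci varied more between libraries of the same group. TPM divides reads by length, so that the same number of reads gives a larger value at a shorter locus. The loci were split into 4 length groups of equal size. In the shortest group (up to 477.5 bases) the median SD within groups was 0.68 on the log2(TPM + 1) scale, against 0.34, 0.24 and 0.24 in the following groups. Values of 0 were also gathered there: 199 loci were listed at 0 in at least 1 library, and 182 of them belonged to the 472 loci of the shortest group (38.6%). The following groups held 8, 5 and 4 such loci. The remaining 1687 loci had a value in all 8 libraries. Annotated long noncoding genes in the same range of lengths had a median SD of 0.43 and 23.2% with a 0. They were also more abundant, with a median of 6.185 TPM against 3.715 TPM, so the sets are matched by length and not by abundance.

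**Figure D3:**
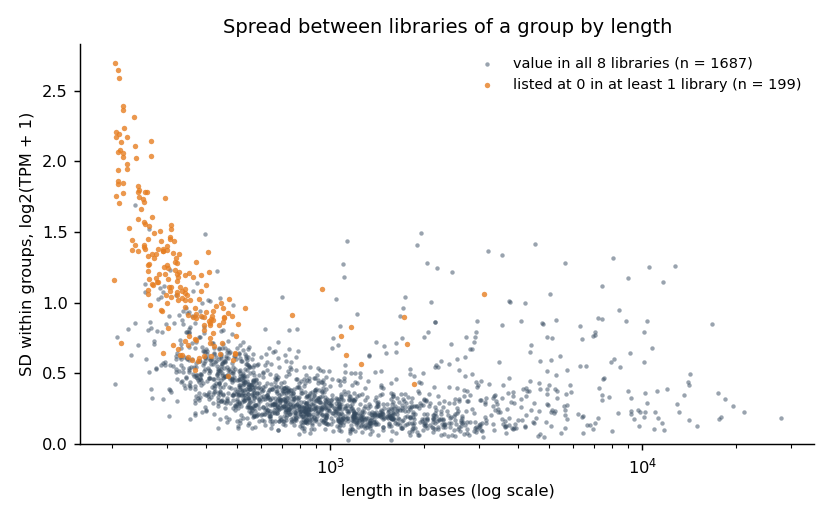
SD within groups of log2(TPM + 1) against length in bases (log scale) for the 1886 assembled loci; orange points were listed at 0 in at least 1 library (n = 199). The spread is largest at the shortest loci, with a median of 0.68 in the shortest of 4 length groups, and a scatter of long loci with wide spread remains to the right.

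The ends of the length range showed this contrast. MSTRG.13670 (202 bases) was listed at 8.73 TPM in IgG replicate 3 and at 0 in the other 7 libraries. MSTRG.16962 (204 bases) ran from 0 in IgG replicate 4 and anti-PD-L1 replicate 1 to 58.0 TPM in IgG replicate 3. MSTRG.19237, also of 204 bases, matches FAM205A-2 and had a value in every library, between 8.17 and 21.4 TPM, so a locus of this length could have a value throughout. The longest locus, MSTRG.6461 (27811 bases), stood at 6.94, 7.60, 6.74 and 9.35 TPM in IgG and 9.80, 8.17, 6.89 and 8.04 TPM in anti-PD-L1 libraries. MSTRG.10243 (21200 bases) ran from 3.52 to 5.66 TPM and shares with MSTRG.6461 a match to the sirtuin-5 deacylase, and MSTRG.25734 (19574 bases) ran from 2.68 to 4.86 TPM. All 3 of the longest were highest in IgG replicate 4 and anti-PD-L1 replicate 1.

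A value in 1 library alone carried 14 loci over the threshold. They were 202 to 328 bases long and stood at 8.73 to 74.8 TPM in that library, which was anti-PD-L1 replicate 1 for 6 of them. MSTRG.5214 (205 bases), one of the 3 most variable loci, was at 74.8 TPM in anti-PD-L1 replicate 3 and at 0 elsewhere. MSTRG.735 (216 bases), another of the 3, was at 24.5, 52.4, 24.6 and 15.7 TPM in IgG and 0, 0, 83.5 and 27.8 TPM in anti-PD-L1 libraries, and its groups overlapped. In all, 10 loci were listed at 0 in every IgG library and 9 in every anti-PD-L1 library, and 18 of these 19 were shorter than 330 bases. No fold is given for them, since the depth is unknown.

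The deposited columns of protein matches gave a hit for 666 of the 1886 loci (659 in the nr database, 240 in Swiss-Prot and 164 in Pfam) and none for 1220. By classes drawn up after the match columns had been read, 77 loci matched LINE-1 proteins, 40 matched IAP proteins, 64 matched other retroviral proteins, 194 a named cellular protein and 291 an unnamed one. Within LINE-1, 58 matched the mouse ORF2 protein and 16 the ORF1 protein in Swiss-Prot, and within IAP 20 matched the envelope protein. The element classes were long, with median lengths of 1954 bases for LINE-1, 3138 for IAP and 4112 for other retroviral matches, against 668.5 bases for loci without a match. Of all members, 332 shared their nr match with another member, so reads of similar copies could have been assigned among them and they are not independent.

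The loci with LINE-1 or retroviral matches had their highest values in the same pair of libraries, 1 of each group. The LINE-1 loci summed to 207, 226, 239 and 579 TPM in IgG replicates 1 to 4 and to 477, 217, 217 and 220.5 TPM in anti-PD-L1 replicates 1 to 4. IAP loci summed to 123.0, 116, 122.9 and 263 TPM in IgG and to 298, 144, 126 and 152 TPM in anti-PD-L1 libraries. In both classes IgG replicate 4 and anti-PD-L1 replicate 1 stood above the other 6 libraries, and the groups overlapped. The other retroviral loci followed with 213, 211, 199 and 342 TPM in IgG and 373, 231, 197 and 222 TPM in anti-PD-L1 libraries.

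Per locus, the ratio of the mean of these 2 libraries to the mean of the other 6 had a median of 1.86 for LINE-1, 2.22 for IAP and 1.61 for other retroviral matches, against 1.07 for loci without a match, 1.08 for annotated long noncoding genes and 1.05 for protein-coding genes. IgG replicate 4 and anti-PD-L1 replicate 1 were both above all other libraries for 49 of 77 LINE-1 loci (63.6%), 33 of 40 IAP loci (82.5%) and 42 of 64 other retroviral loci (65.6%). The share was 20.8% over all 20343 rows, 22.2% over all assembled loci and 11.5% over those without a match. These libraries were picked out by their values across all rows, so the shares are descriptions and no test was made.

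**Figure D4:**
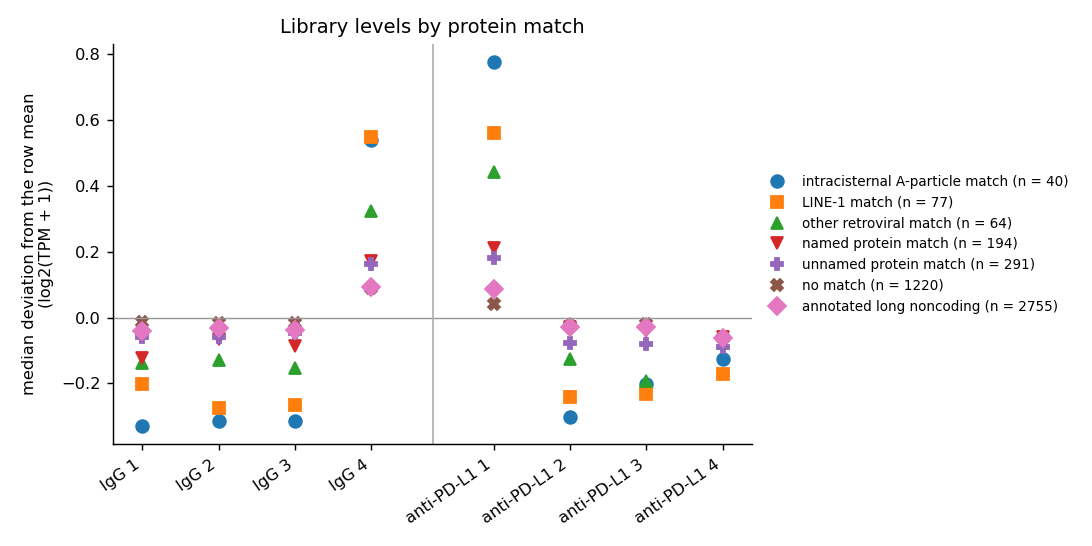
Median deviation of each library from the row mean on the log2(TPM + 1) scale, by protein match of the assembled loci and for annotated long noncoding genes. LINE-1, IAP and other retroviral loci stand highest in IgG replicate 4 and anti-PD-L1 replicate 1, at 0.55 and 0.56 for LINE-1, and below 0 in the other 6 libraries.

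Single elements spanned a wide range. MSTRG.27126 (2033 bases, LINE-1 ORF2) was at 7.69, 9.29, 9.69 and 55.8 TPM in IgG and 58.3, 8.48, 10.5 and 8.16 TPM in anti-PD-L1 libraries. MSTRG.11088 (7421 bases), which matches the IAP Pol protein with its reverse transcriptase domain, was at 3.74, 3.83, 3.52 and 16.3 TPM in IgG and 15.1, 4.21, 4.19 and 4.08 TPM in anti-PD-L1 libraries. Both loci were several-fold higher in 1 library of each group than in the other 6. MSTRG.25621 (2328 bases, IAP envelope), the most abundant IAP locus, did not share this pattern: it was at 22.3, 21.3, 19.6 and 22.1 TPM in IgG and 25.5, 19.5, 20.1 and 24.4 TPM in anti-PD-L1 libraries. MSTRG.20236 (5645 bases), the most abundant of the other retroviral loci, lay between, at 17.4, 17.8, 15.95 and 24.1 TPM in IgG and 22.3, 18.6, 17.1 and 17.9 TPM in anti-PD-L1 libraries. These 4 loci were chosen after their values had been seen.

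Length moved with this pattern as well. The 2 libraries were highest for 11.2%, 9.34% and 14.0% of the loci in the first 3 length groups and for 54.2% in the longest, against 8.42%, 9.91%, 20.4% and 37.1% of annotated long noncoding genes in the same ranges. Within the longest group the share was 83.7% of 129 LINE-1 and retroviral loci and 43.1% of the other 343. Those 343 include 164 loci without a match, of which 22.6% showed it, so the share was higher among the rest of them. Of 19 LINE-1 and retroviral loci in the shortest group, 4 (21.1%) showed it. Assembled loci below the threshold had it too, with sums of 89.4 to 120 TPM in 6 libraries and of 345.5 and 357 TPM in IgG replicate 4 and anti-PD-L1 replicate 1. The part of length in the pattern of the element classes was not tested.

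Loci that match proteins of sperm and germ cells were collected by keyword from the match columns, 21 in all. MSTRG.14555 (1837 bases) matches tektin-5, a filament protein of the sperm flagellum, and stood at 16.1, 19.0, 15.2 and 20.96 TPM in IgG and 17.6, 23.6, 18.6 and 19.2 TPM in anti-PD-L1 libraries, with overlap. MSTRG.7372 (4233 bases) and MSTRG.7371 (4356 bases) share a match to the mouse protein TISP22 and had means of 20.2 and 11.0 TPM. Others match SPATA31 family proteins (MSTRG.12162, 10135 bases, at 9.96 to 14.1 TPM), FAM205A-2 (MSTRG.30267, 378 bases, at 11.2 to 25.2 TPM) and the Y-linked testis protein Ssty1 (MSTRG.31591, 1085 bases, at 3.98 to 8.06 TPM). Means were higher for 16 of the 21 and lower for 5 after anti-PD-L1, where 58.3% of all rows were higher, and 0 passed the test. Of the 21, 2 had an unadjusted p below 0.05 (limma), where 5.23% of all rows had one (2.22% lower), and both were lower. MSTRG.30706 (678 bases), with a log2 difference of −0.32, matches cancer/testis antigen 55 in nr and the RNA helicase Mov10l1 in Swiss-Prot. MSTRG.30703 and MSTRG.30704, which share its nr match, went the other way, with log2 differences of 0.10 and 0.05. MSTRG.19236 (291 bases, FAM205A-2), with −1.25, had overlapping groups, and its means were 2.2 TPM in IgG and 0.41 TPM in anti-PD-L1 libraries. It met the threshold through the IgG group alone, so a difference was bound to be seen. MSTRG.30267, MSTRG.19237 and MSTRG.30270, which also match FAM205A-2 in Swiss-Prot, had log2 differences of 0.34, 0.22 and 0.21. No direction is therefore given for loci with these matches. In 8 of the 21 (38.1%, against 20.8% of all rows), IgG replicate 4 and anti-PD-L1 replicate 1 were the 2 highest libraries. Several of the 21 share a match with another, so they are not independent.

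Setting treated against control libraries asks whether anti-PD-L1 changed these transcripts. By limma on log2(TPM + 1), 0 of the 1886 loci passed an adjusted p of 0.05, and the share over all 20343 rows was also 0%. At an unadjusted p below 0.05 there were 103 loci (5.46%), against 5.23% of all rows. Of these 36 were higher after anti-PD-L1 (1.91% of the loci, against 3% of all rows) and 67 lower (3.55%, against 2.22%). All 4 anti-PD-L1 libraries were above all 4 IgG libraries at 21 loci (1.11%, against 1.76% of all rows) and below them at 34 (1.80%, against 1.23%). Among the 1886 loci, 112 reached a mean of 1 TPM in only 1 of the groups, and they included 15 of these 103 (4 higher and 11 lower) and 6 of the 55 whose groups did not overlap. Loci with higher means numbered 939 (49.8%, against 58.3% of all rows), and the median log2 difference was −0.001, against 0.03 over all rows.

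With the 2 libraries that stand apart left out, 163 loci had an unadjusted p below 0.05 (8.64%, against 9.88% of all rows). Of these 72 were higher and 91 lower, against 1337 higher and 672 lower over all 20343 rows. Past the adjusted threshold there was 1 locus, and the count over all rows is given in the closing section. Groups of 3 did not overlap at 106 loci that were higher (5.62%, against 11% of all rows) and at 129 that were lower (6.84%, against 5.15%). By class, the LINE-1 loci split into 47 higher and 30 lower, IAP loci into 31 and 9, other retroviral loci into 37 and 27, and loci without a match into 559 and 661. None of these classes had a locus past the adjusted threshold. An unadjusted p below 0.05 was found for 5 of 77 LINE-1, 1 of 40 IAP, 0 of 64 other retroviral and 80 of 1220 loci without a match. Over all rows the share was 5.23%. The splits of the element classes turned with single libraries. Without anti-PD-L1 replicate 1 alone they were 14 higher and 63 lower for LINE-1, 10 and 30 for IAP, and 11 and 53 for other retroviral loci. Without IgG replicate 1, 2 or 3 the LINE-1 loci split into 30 and 47, 21 and 56, and 24 and 53, and the IAP loci into 19 and 21 each time. The other retroviral loci also turned without IgG replicate 1 (28 and 36) or 3 (27 and 37). Without IgG replicate 4 alone the splits were 60 and 16, 36 and 4, and 52 and 12, and the loci without a match then turned, to 614 and 605. With both libraries that stand apart left out they were 49 and 27, 27 and 13, and 35 and 29, so no direction is given for these classes. Leydig cell markers, through Insl3, also differed between the groups, and their part in these values was not tested.

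**Figure D5:**
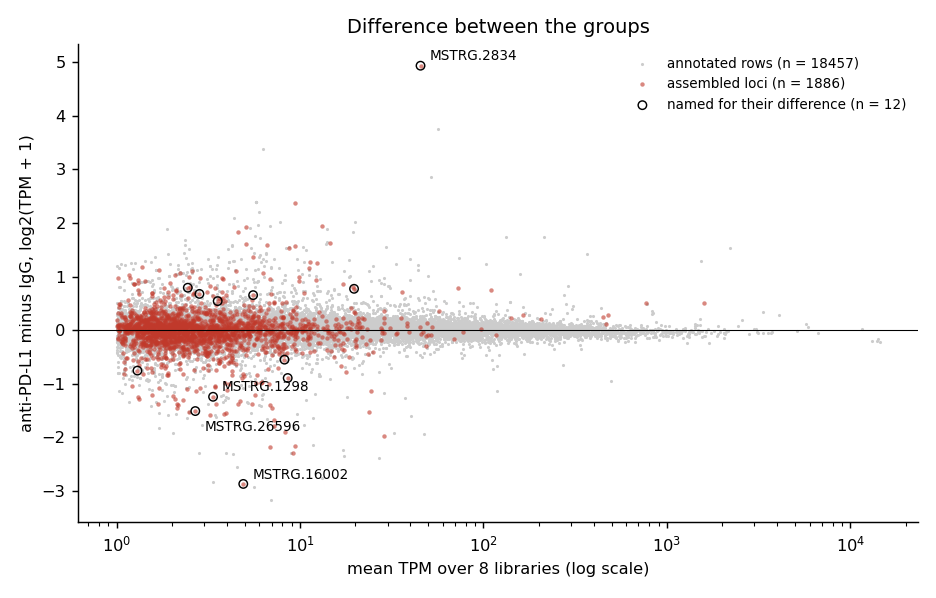
Difference between the group means (anti-PD-L1 minus IgG, log2(TPM + 1)) against mean TPM (log scale) for 1886 assembled loci (red) and 18457 annotated rows (grey); open circles mark the 12 loci named for their difference. MSTRG.2834 at 4.93 and MSTRG.16002 at −2.87 are labelled with 2 others, and 0 rows passed an adjusted p of 0.05.

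The widest difference was at MSTRG.2834 (374 bases, no protein match). It belongs to the shortest length group, where the median SD within groups was 0.68 on the log2(TPM + 1) scale, and its own was 1.14. It was at 0.65, 0.01, 2.06 and 10.4 TPM in IgG and at 91.8, 103, 108 and 47.3 TPM in anti-PD-L1 libraries. The groups did not overlap, and the highest IgG library was replicate 4. The means were 3.28 ± 4.81 and 87.5 ± 27.6 TPM (SD, n = 4), a log2 difference of 4.93 (SE 0.67, adjusted p = 0.202, limma). Without IgG replicate 4 the log2 difference was 5.62 (adjusted p = 0.004, limma), and without both libraries that stand apart it was 5.57 (adjusted p = 0.039, limma). With array quality weights it was 5.39 (adjusted p = 0.0267, limma). Over all alternatives the adjusted p ran from 0.004 to 0.91 and the difference from 4.45 to 6.16.

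Another 5 loci were named as higher, with groups that did not overlap and adjusted p of 0.632 to 0.657 (limma). MSTRG.5849 (880 bases), which matches the LINE-1 ORF1 protein, was at 4.94, 4.39, 3.19 and 3.86 TPM in IgG and 6.87, 8.72, 5.92 and 6.53 TPM after anti-PD-L1, giving a log2 difference of 0.65 (SE 0.15). It was the only LINE-1 locus whose anti-PD-L1 libraries were all above the IgG libraries, and its highest was anti-PD-L1 replicate 2. MSTRG.23433 (291 bases) was at 9.80, 16.6, 12.6 and 18.9 TPM in IgG and 21.2, 21.8, 29.0 and 27.8 TPM after anti-PD-L1, giving a log2 difference of 0.77 (SE 0.20). MSTRG.4782 (780 bases), which matches MED13, a subunit of the Mediator complex that links transcription factors to RNA polymerase, was at 1.08 to 2.46 TPM in IgG and 2.54 to 4.13 TPM in anti-PD-L1 libraries. MSTRG.846 (1039 bases) and MSTRG.27458 (472 bases) had no match, and their log2 differences were 0.68 (SE 0.17) and 0.54 (SE 0.14).

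Among loci with lower values MSTRG.16002 (213 bases, no match) had the widest difference. It was at 8.74, 14.9, 4.52 and 9.05 TPM in IgG and was listed at 0, 0, 2.01 and 0 TPM in anti-PD-L1 libraries, so the groups did not overlap. The log2 difference was −2.87 (SE 0.43, adjusted p = 0.208, limma), and its adjusted p ran from 0.11 to 0.91 over the alternatives. Its mean was 9.31 TPM in IgG and 0.50 TPM in anti-PD-L1 libraries, so it met the 1 TPM threshold through the IgG group alone and was bound to differ. It belongs to the shortest length group, in which 38.6% of loci had a 0 in some library. The other 5 named as lower had no match either, and their adjusted p was 0.632 to 0.657 (limma). MSTRG.1298 (409 bases) was at 5.81, 4.75, 5.64 and 3.90 TPM in IgG and 2.80, 1.21, 0.46 and 2.30 TPM after anti-PD-L1, giving a log2 difference of −1.24 (SE 0.29). MSTRG.26596 (349 bases; 0.92 TPM in anti-PD-L1 libraries, so that IgG alone carried it over the threshold), MSTRG.28287 (304 bases) and MSTRG.30749 (641 bases) had log2 differences of −1.51 (SE 0.38), −0.89 (SE 0.24) and −0.55 (SE 0.14).

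MSTRG.17152 (2154 bases), the longest of the loci named for their difference, was at 2.18, 2.45, 1.62 and 1.34 TPM in IgG and 0.86, 0.51, 0.82 and 0.62 TPM after anti-PD-L1, giving a log2 difference of −0.76 (SE 0.18). MSTRG.17153 (1858 bases), which carries the next assembler number and was picked after its values were seen, went the other way, at 0, 0, 0.71 and 1.21 TPM in IgG and 1.93, 2.33, 1.66 and 1.48 TPM after anti-PD-L1, giving a log2 difference of 1.02 (SE 0.28, adjusted p = 0.657, limma). Neither locus had overlapping groups or a protein match. Each met the threshold through the group where it was high, since the means were 1.90 and 0.70 TPM for MSTRG.17152 and 0.48 and 1.85 TPM for MSTRG.17153 in IgG and anti-PD-L1 libraries, so a difference in each was bound to be seen. Summed over both, the values were 2.18 to 2.55 TPM in IgG and 2.10 to 2.84 TPM in anti-PD-L1 libraries, which overlapped. Whether the 2 numbers mark neighbouring stretches of the genome was not analysed here.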

How the data were processed

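Testis RNA from 4 IgG and 4 anti-PD-L1 libraries was measured by RNA-seq. Per the labels' protocols, TRIzol RNA was treated with DNase I and made into TruSeq libraries. Per the submitters' processing notes, mm10 was the build, and StringTie, HISAT2, RSEM and CASAVA 1.8 were used, with order and settings not stated there. The deposited table holds TPM per row and library, which the authors scaled so that each library sums to 1000000, with a length column and protein match columns. Depth cannot be recovered, so no intervals that rest on it are given.

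All 20343 rows with a mean of at least 1 TPM were tested with limma 3.58.1 in R 4.3.3 on log2(TPM + 1), with an intensity trend, a group term and Benjamini-Hochberg adjustment at 0.05. Differences are on that scale, which understates changes of low values. Biotypes came from GENCODE M21. The code was tested on simulated data. Members, gene lists and rules were chosen with earlier results of these data known.

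Named loci were the 8 most abundant, the 6 higher and 6 lower with the smallest p among those whose groups did not overlap, the 3 longest, the 3 shortest, the 3 most variable (highest over lowest library on TPM + 1) and 2 on each side of the threshold. Match classes, the 6 annotated rows set beside the most abundant loci and the analysis without both libraries that stand apart were added after seeing the data. Alternatives were quantile normalization, TMM factors, a 0.1 pseudocount, a minimum of 5 TPM or none, rescaling to protein-coding genes, no trend, array quality weights, the replicate number as a block and each library left out.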

Additional observations from a re-analysis of the deposited data

Results flagged for a closer look

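In groups of 4 libraries, 1 library lay far from the other 3 in 18 of 74 groups of values looked at. Many of the loci were named for their spread, length or difference, and the groups of values share libraries and loci. No chance rate can therefore be set beside this count. Anti-PD-L1 replicate 1 was the far library for the sum over all members (17773.2 TPM), for LINE-1 loci (477.24 TPM), for IAP loci (298.25 TPM), and for MSTRG.23022 (638.07 TPM), MSTRG.13911 (287.63 TPM), MSTRG.13746 (233.06 TPM), MSTRG.846 (4.62 TPM), MSTRG.25734 (4.86 TPM) and MSTRG.3008 (1.95 TPM). IgG replicate 4 was the far library for LINE-1 loci (579.28 TPM), IAP loci (262.81 TPM), other retroviral loci (341.56 TPM), MSTRG.10243 (5.09 TPM) and MSTRG.3008 (1.71 TPM). So 14 of the 18 came from these 2 libraries, in both groups. The remaining 4 were MSTRG.16002 in anti-PD-L1 replicate 3 (2.01 TPM) and MSTRG.5214 in the same library (74.75 TPM), MSTRG.30749 in anti-PD-L1 replicate 4 (8.2 TPM), and MSTRG.13670 in IgG replicate 3 (8.73 TPM). For MSTRG.16002, MSTRG.5214 and MSTRG.13670 the other 3 libraries of the group were listed at 0.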

How the results depend on the processing

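Depth is unknown, so values at 0 and at the shortest loci cannot be given limits. Rows past the adjusted threshold numbered 0, and were 1 with a pseudocount of 0.1, 5 with array quality weights, 8 without both libraries that stand apart, and 0 to 15 with each library left out (15 without IgG replicate 4). Members past it numbered 0, and were 1 with weights (MSTRG.2834), 1 without both libraries, and 0 to 2 with each library left out (without IgG replicate 4, MSTRG.2834 and MSTRG.1030). MSTRG.1030 (253 bases) was at 0, 0, 0 and 13.5 TPM in IgG and 8.68, 5.72, 3.78 and 8.90 TPM in anti-PD-L1 libraries. Without IgG replicate 4 its IgG group was at 0 throughout, so its passing there is not read as a difference. Members at an unadjusted p below 0.05 numbered 103, and were 24 with a filter of 5 TPM, where 436 members were tested, 169 with weights, 163 without both libraries, and 80 to 136 with each library left out. The shares were 8.96% with weights and 8.64% without both libraries, against 10.59% and 9.88% of all rows. The median log2 difference of members lay between −0.07 and 0.04, and the log2 ratio of sums between −0.02 and 0.19, within the spread between libraries. Over all rows, 611 were higher and 452 lower at an unadjusted p below 0.05. The counts were 524 and 596 after quantile normalization, and 481 and 530 after TMM rescaling, and those for members were 34 and 74, and 33 and 74.

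Of 528 values of named loci under the alternatives, 19 at 8 loci changed sign and the cause was not tested. With array quality weights MSTRG.16962 was at −0.29. Without both libraries MSTRG.23022 was at −0.087, MSTRG.5312 at −0.047, MSTRG.13911 at −0.063 and MSTRG.25305 at −0.20. With each library left out the ranges were −1.11 to 1.41 for MSTRG.16962, −0.086 to 0.32 for MSTRG.23022, −0.020 to 0.39 for MSTRG.19237, −0.20 to 0.046 for MSTRG.25734, −0.12 to 0.30 for MSTRG.25305, −0.047 to 0.42 for MSTRG.5312 and −0.072 to 0.15 for MSTRG.10243.

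With the replicate block, 105 members had an unadjusted p below 0.05 (40 higher and 65 lower), and 0 rows passed the adjusted threshold. The numbers were not taken as pairs, since deviations of same-numbered libraries had correlations of −0.11, 0.10, 0.09 and −0.20.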
